A study of Solanum lycopersicum with 32 samples.

Results

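The regions described here are stretches of the tomato genome that carried a peak of H3K9ac, the acetylation of lysine 9 on histone H3, only after 6 h of heat. Peaks from the 6 deposited H3K9ac peak lists were joined wherever they overlapped or touched, which gave 85420 regions of 150 bp or more on the 12 assembled chromosomes. Regions were selected on H3K9ac peak presence alone, and a region was kept when a peak overlapped it in both libraries of 6 h and in none of the 4 libraries of 0 h and 1 h. This left 2041 regions, or 2.39% of all. For comparison, 5199 regions had H3K9ac peaks only at 0 h and 1170 only at 1 h.

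The study used chromatin immunoprecipitation followed by sequencing (ChIP-seq) on leaves of wild-type tomato (Solanum lycopersicum) cultivar M82, to follow chromatin during heat stress. The groups were the fourth leaves of 4-week-old plants held at 45 °C for 0, 1 or 6 h, after growth at 24 °C with 16 h of light. Besides H3K9ac, the targets were acetylation of lysines 18 and 27 (H3K18ac, H3K27ac), trimethylation of lysine 4 (H3K4me3), all on histone H3, and the RNA polymerase II enzyme (RNAPII). For each of these, every time had 2 libraries labelled as replicates, and each library had its own peak list. No unheated leaves of 1 h or 6 h were among the samples, so heat and time of day cannot be told apart. The only input library, which served as background for every list, came from 0 h leaves, and a change of background with heat cannot be told apart from a change of a mark.

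Acetyl groups on the tails of histone H3 are added by histone acetyltransferases and removed by deacetylases. In plants, H3K9ac, H3K18ac and H3K27ac mark open, active chromatin and are usually found together near the starts of active genes, where H3K4me3 also lies. H3K27ac is widely used to find enhancers in animals. RNAPII transcribes protein-coding genes, and its peaks show where the polymerase sits on DNA. No peak in a list means that the caller found no enrichment at that depth, and not that a mark was absent.

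The H3K9ac peaks that chose the regions were weak, and their values are given as a description only. Fold enrichment, the ratio of fragments at the highest point of a peak to the local background, had a median of 2.26 in replicate 1 and 2.15 in replicate 2 at 6 h. The medians of all peaks in the same lists were 2.64 and 2.58. The median peak rested on 18 and 21 fragments, against 22 and 26 in the whole lists. Both libraries reached a q-value, the false discovery rate given by the peak caller, of at most 0.05 in 1235 regions (60.5%) and of at most 0.01 in 701 (34.3%). The lower fold of the 2 libraries ranged from 1.40 to 6.46 with a median of 2.02. It was at least 3 in 118 regions and at least 5 in 6. Regions with H3K9ac in all 6 libraries, of which there were 28378, had a median lower fold of 8.44.

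Depth differed between the times that set the rule. The lowest background, in fragments over a base, was 7.40 and 7.38 in the H3K9ac libraries of 0 h, 4.47 and 5.53 at 1 h, then 5.15 and 6.49 at 6 h. The fewest fragments of any called peak were 12 and 13 at 0 h, 8 and 10 at 1 h, then 9 and 11 at 6 h. The libraries of 0 h were thus the deepest, while those of 1 h and 6 h overlapped. The part of depth in the missing peaks of 1 h was not tested. Just outside the rule lay 1507 regions with peaks in both 6 h libraries and in 1 of the 4 earlier ones, with a median lower fold of 2.04. A further 8837 regions had a peak in only 1 library of 6 h and none earlier, with a median fold of 1.98. The regions inside and outside the rule therefore overlapped in strength.

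The labelled replicates were checked against sampling noise. Over peaks matched between 2 libraries, chi-square averaged 0.295 to 0.705 per peak in the 11 same-time pairs that could be compared, and 1.04 to 10.7 in 46 pairs from different times. The replicates that could be compared differed by less than sampling noise, so values are given for both libraries side by side and no SD is printed. The p-values take the libraries as labelled, and the tests with each pair counted as 1 sample, in which none passed the threshold, are given beside them. All p-values compare libraries and not plants, and whether the libraries of different targets came from the same leaves was not given. Over the 30 lists there were 40601 to 126475 peaks per library.

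The regions found only at 6 h were short. Their length was 170 to 2561 bp with a median of 435 bp, against a median of 622 bp in the other 83379 H3K9ac regions, and together they covered 1.04 Mb. The 150 bp limit removed none of them, since the shortest was longer than that. Regions with H3K9ac only at 0 h or only at 1 h were of like length, with medians of 455 and 438 bp. The highest points of the 2 libraries of 6 h lay a median of 90 bp apart, and in 68.7% of the regions they were within 150 bp of each other. At the other H3K9ac regions the median was 58 bp, with 73.3% within 150 bp.

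The highest fold was found at chr12:56898888-56899696 (M82 assembly), a region of 809 bp. Its H3K9ac fold was 6.50 and 6.46 in the 2 libraries of 6 h, and the nearest H3K9ac peak of 0 h or 1 h was 49145 bp away. Peaks of the histone marks were present at 0 h. H3K18ac was at 4.28 and 3.81 at 0 h, 2.95 and 3.28 at 1 h, then 3.90 and 5.38 at 6 h. H3K27ac had folds of 4.64 and 3.96 at 0 h, 4.95 and 4.88 at 1 h, then 4.92 and 6.24 at 6 h. H3K4me3 stood at 6.17 and 4.75 at 0 h, 4.24 and 2.30 at 1 h, then 4.65 and 5.03 at 6 h. No RNAPII peak overlapped this region in any library.

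The second-ranked region, chr12:32897316-32899180, also lacked RNAPII in all 6 libraries, and H3K18ac was missing there in the middle of the series. H3K9ac was at 6.26 and 6.27 at 6 h. H3K18ac had folds of 2.22 and 2.88 at 0 h, no peak in either library of 1 h, then 3.30 and 3.96 at 6 h. H3K27ac was present throughout, with 5.49 and 6.22 at 0 h, 3.56 and 4.84 at 1 h, then 6.87 and 5.47 at 6 h. H3K4me3 was lowest at 1 h, with folds of 3.62 and 5.17 at 0 h, 2.44 and 2.24 at 1 h, then 6.85 and 9.69 at 6 h.

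**Figure D1:**
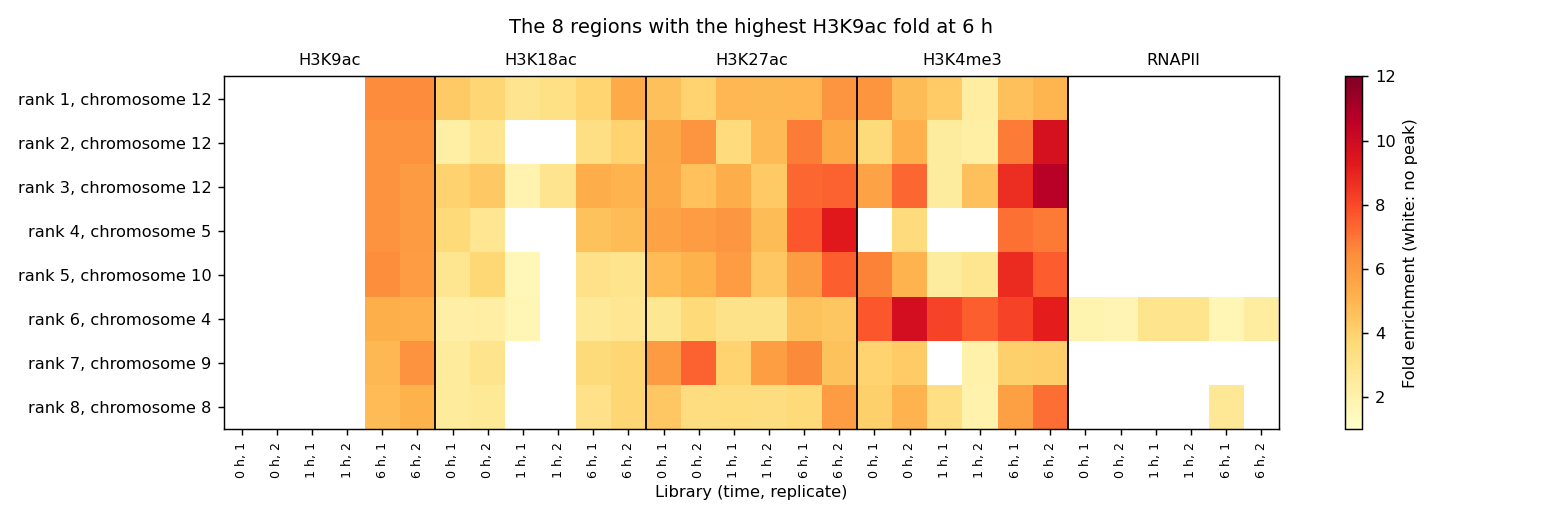
Fold enrichment over input at the 8 regions with the highest H3K9ac fold at 6 h (rows), in each of 30 libraries (columns, by target, time and replicate). White means no peak. H3K9ac appears in the libraries of 6 h only, by the rule, while H3K27ac is filled in all 6 libraries of every row and RNAPII in all 6 libraries of only the row of rank 6.

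The next regions were alike in part. At chr12:42144463-42145134, H3K4me3 had folds of 5.72 and 7.36 at 0 h, 2.42 and 4.64 at 1 h, then 8.72 and 10.7 at 6 h. H3K18ac kept peaks there at 1 h, of 1.93 and 2.96. At chr5:48775274-48776183, which lay 132662 bp from any earlier H3K9ac peak, H3K18ac was at 3.66 and 2.81 at 0 h, without a peak at 1 h, then at 4.56 and 4.74 at 6 h. H3K4me3 there had a peak of 3.58 in replicate 2 of 0 h, none at 1 h, then 7.11 and 6.90 at 6 h. The region chr10:10958391-10960019 had H3K4me3 folds of 6.73 and 5.07 at 0 h, 2.45 and 2.88 at 1 h, then 8.80 and 7.56 at 6 h. Its H3K18ac had a peak at 1 h in replicate 1 only, of 1.62. Of the 8 highest regions, only chr4:3150037-3150861 had RNAPII peaks at all times, with folds of 1.90 and 1.82 at 0 h, 2.98 and 3.00 at 1 h, then 1.71 and 2.39 at 6 h. Its H3K4me3 showed no dip in replicate 1. The H3K4me3 folds were 7.69 and 9.84 at 0 h, 8.14 and 7.52 at 1 h, then 8.15 and 9.12 at 6 h. The region chr8:40849598-40850633 had an RNAPII peak in a single library, replicate 1 of 6 h, with a fold of 2.69. The region chr9:9691483-9692875, with H3K9ac folds of 4.90 and 6.26, lacked H3K18ac at 1 h only, as did chr8:40849598-40850633.

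The 5 longest regions had lower H3K9ac folds. The longest, chr1:51211200-51213760, measured 2561 bp and had H3K9ac folds of 3.28 and 2.74 at 6 h. H3K18ac was at 3.63 and 3.96 at 0 h, absent from both lists of 1 h, then at 4.45 and 4.17 at 6 h. Its H3K4me3 folds were 2.90 and 4.24 at 0 h, 2.17 and 3.04 at 1 h, then 7.30 and 5.92 at 6 h. H3K18ac was likewise missing only at 1 h at chr12:38217166-38219692 and at chr4:21043167-21045098. It kept a peak at 1 h at chr1:47518407-47520406, with 2.18 and 2.31 against 3.78 and 3.83 at 0 h. The fourth-longest, chr4:38812083-38814064, was the exception, since it had no H3K4me3 at any time and RNAPII peaks of 3.02 and 3.43 at 6 h only.

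Like the other H3K9ac regions, nearly all of these regions had a peak of another target before the heat. At least 1 library of another target had a peak at 0 h in 2032 of the 2041 regions (99.6%), against 98.2% of the other H3K9ac regions. H3K18ac and H3K27ac both had peaks in all their libraries of 0 h in 1562 regions (76.5%), against 57.6% of the others. There were 5 regions (0.245%, against 0.500% of the other regions) with no peak of any other target in any of 24 lists. The strongest of these, chr8:15001533-15001816, had H3K9ac folds of 2.11 and 2.14, and chr7:44301173-44301373 and chr1:6586600-6586780 followed with 2.04 and 1.85, and with 1.79 and 2.14.

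RNAPII set these regions apart from the other H3K9ac regions. An RNAPII peak was found in 11.8% and 11.1% of them at 0 h (replicates 1 and 2), 14.5% and 14.4% at 1 h, then 12.8% and 11.8% at 6 h. Of the other H3K9ac regions, 62.6% and 62.0% had a peak at 0 h, 72.0% and 71.9% at 1 h, then 60.1% and 59.0% at 6 h. The groups did not overlap in any library. The mean over 6 libraries was 12.7% against 64.6%, a difference of -51.9 percentage points (lower in 6 of 6 libraries, exact sign-flip test, two-sided, p = 0.03125, the smallest possible, adjusted p = 0.0469 over 12 contrasts). With each pair counted once the exact p was 0.25, the smallest possible. The 12 contrasts were chosen after seeing the data. No RNAPII peak in any library was found at 1557 regions (76.3%), against 20.3% of the other regions.

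The low RNAPII share was not shared by the regions that had H3K9ac only at another time. Against regions with H3K9ac only at 0 h, which were of like length, the difference was -49.7 points, and against those only at 1 h it was -43.4 points (lower in 6 of 6 libraries in both cases, exact sign-flip test, adjusted p = 0.0469 each). With each pair counted once the exact sign-flip p was 0.25 for each, which is not past the threshold. Among regions of 150 to 1000 bp alone, RNAPII peaks were found at 0 h in 12.2% and 11.4% of those with H3K9ac only at 6 h and in 46.0% and 45.1% of the others.

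H3K27ac was more common at the regions found only at 6 h than at the other H3K9ac regions as a whole. Its peaks overlapped 84.5% and 81.3% of them at 0 h, 89.6% and 86.4% at 1 h, then 90.6% and 86.7% at 6 h. The other H3K9ac regions had 65.0% and 62.5% at 0 h, 77.5% and 73.2% at 1 h, then 75.5% and 69.4% at 6 h. The mean difference was 16.0 points, higher in 6 of 6 libraries (exact sign-flip test, two-sided, adjusted p = 0.0469). With each pair counted once the exact sign-flip p was 0.25, which is not past the threshold. Other classes had H3K27ac as often, without a test. Regions with H3K9ac in all 6 libraries had it in 90.1% to 97.8% of cases over the 6 H3K27ac libraries. Regions missing H3K9ac only at 1 h had 82.3% and 79.0% at 0 h, 93.4% and 90.4% at 1 h, then 93.9% and 88.1% at 6 h. The direction against the other regions turned when a replicate was left out of every list. Without replicate 1, the rule gave 10203 regions and the difference was -9.53 points. Without replicate 2, it gave 9143 regions and -1.20 points. The RNAPII difference kept its sign, with -51.2 and -49.6 points. When the 2041 regions were kept and only the lists of the other targets were left out, H3K27ac differed by 15.6 to 16.4 points.

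H3K4me3 was found at 47.9% and 54.0% of the regions at 0 h, 30.5% and 36.6% at 1 h, then 51.4% and 56.3% at 6 h. The other regions stayed closer together, with 36.0% and 38.5% at 0 h, 35.6% and 37.6% at 1 h, then 35.0% and 37.3% at 6 h. The regions found only at 6 h were above the others at 0 h and 6 h and below them at 1 h. The mean difference of 9.47 points was therefore not past the threshold (higher in 4 of 6 libraries, exact sign-flip p = 0.125, adjusted p = 0.150). It became -15.8 and -11.1 points without replicate 1 or 2 of every list. Against regions with H3K9ac only at 0 h, where H3K4me3 averaged 9.03%, the mean of 46.1% was higher by 37.1 points in 6 of 6 libraries (adjusted p = 0.0469, same exact test). With each pair counted once the exact sign-flip p was 0.25, which is not past the threshold.

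H3K18ac showed the same dip at 1 h from a higher level. Its peaks overlapped 96.5% and 95.9% of the regions at 0 h, 77.0% and 75.4% at 1 h, then 97.4% and 96.9% at 6 h. The other H3K9ac regions had 92.5% and 91.8% at 0 h, 94.1% and 93.6% at 1 h, then 87.7% and 86.6% at 6 h. All libraries of 1 h were below those of 0 h and 6 h at the regions found only at 6 h. At the other regions as a whole, those of 1 h were above those of 0 h and 6 h. Over all times the mean difference between the region classes was -1.23 points and was not past the threshold (exact sign-flip p = 0.844). Regions missing H3K9ac only at 1 h also dipped, by less and without a test. Their H3K18ac shares were 98.8% and 98.7% at 0 h, 95.8% and 95.5% at 1 h, then 97.8% and 97.7% at 6 h. Their H3K4me3 shares were 31.5% and 36.1%, 26.2% and 29.96%, then 28.8% and 33.3% at these times. Regions with H3K9ac only at 0 h had no H3K18ac dip, with 93.2% and 92.7% at 0 h, then 93.4% and 92.98% at 1 h.

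**Figure D2:**
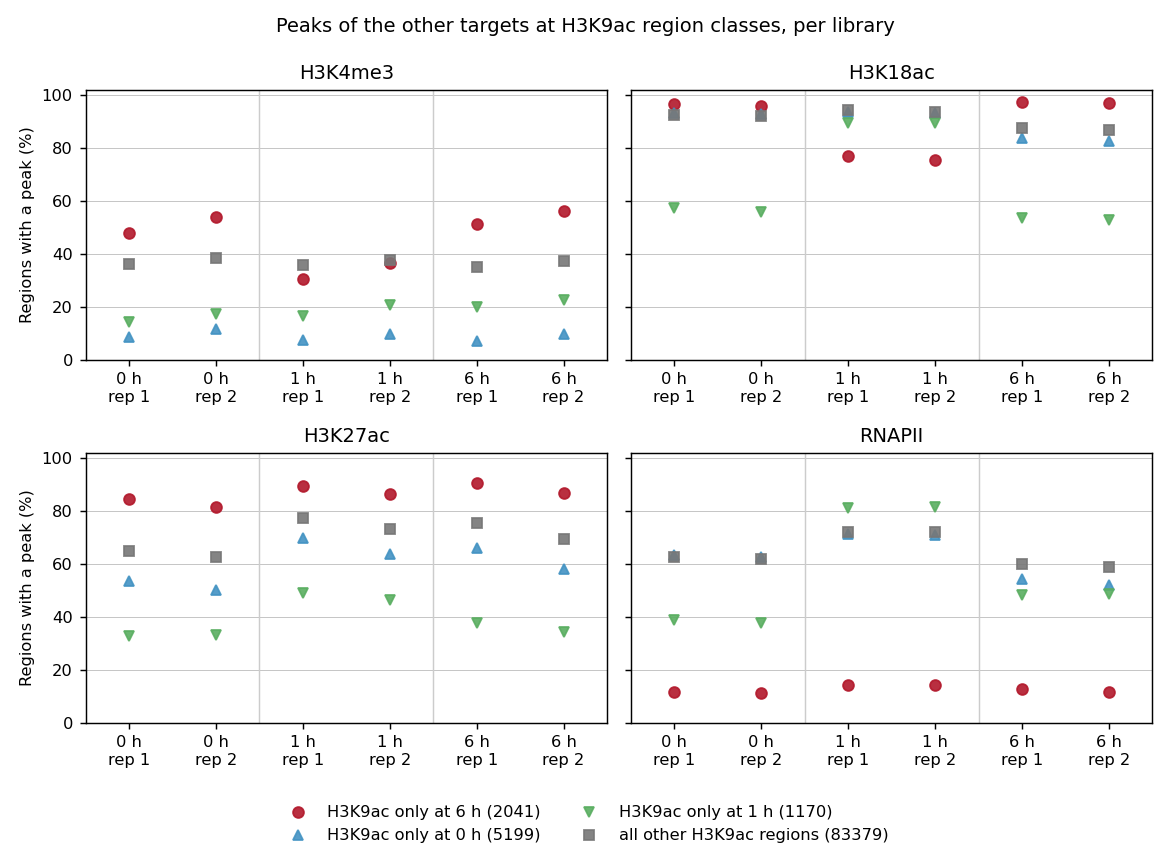
Share of H3K9ac regions overlapped by a peak of each other target (y axis, percent) in each library (x axis, time and replicate), for regions with H3K9ac only at 6 h, only at 0 h, only at 1 h and for all regions other than those only at 6 h. Regions only at 6 h stand lowest for RNAPII in all libraries, from 11.1% to 14.5%, and dip at 1 h for H3K18ac and H3K4me3.

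The times were compared jointly over the 4 other targets, because with 2 libraries per time a single target cannot reach an exact p under 0.333. The excess of the 2041 regions over the other H3K9ac regions, in percentage points, was taken in each library. It removes only those shifts of whole lists that act alike on both classes. Weak peaks can be lost where strong ones stay, and the classes differed in strength. Median H3K4me3 folds at 0 h were 3.35 and 3.63 at the 2041 regions and 14.6 and 12.9 at the others. By the rule, only the other regions could have H3K9ac at 0 h or 1 h. This excess was lower at 1 h than at 0 h, with differences of -16.8 points for H3K4me3, -21.8 for H3K18ac, -6.53 for H3K27ac and -6.64 for RNAPII. For H3K27ac and RNAPII the plain shares rose, by 5.07 and 3.01 points, against 11.6 and 9.65 points at the other regions. The negative signs of these targets thus come from the subtraction, and RNAPII started from unlike levels of 11.4% and 62.3%. The libraries of the 2 times did not overlap for any target. The mean over targets was -12.9 points (exact permutation test, two-sided, p = 0.00154, the smallest possible, adjusted p = 0.00463 over 6 comparisons). At 6 h the excess was higher than at 1 h for all 4 targets, by 20.7 points for H3K4me3, 27.7 for H3K18ac, 3.51 for H3K27ac and 10.3 for RNAPII, with a mean of 15.5 points and the same p-values. With each labelled pair counted as 1 sample, the adjusted p was 0.25 for both, where no p under 0.125 is possible. The plain RNAPII share differed by -2.13 points between 6 h and 1 h, against -12.4 points at the other regions. The positive sign of its excess thus also comes from the subtraction.

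The 6 h and 0 h libraries differed less. The mean difference in excess between 6 h and 0 h was 2.63 points (exact permutation p = 0.0509, adjusted p = 0.0630) and was not past the threshold of 0.05, although it passed with stricter q cutoffs of 0.05 and 0.01 (adjusted p = 0.0340 and 0.0432) and with lists of equal size (adjusted p = 0.0247, exact permutation tests). By target it was 3.97 points for H3K4me3, 5.92 for H3K18ac, -3.02 for H3K27ac and 3.64 for RNAPII, and the libraries of the 2 times did not overlap for any target. In the plain shares, without subtraction of the other regions, the mean over targets differed by 2.60 points between 6 h and 0 h (adjusted p = 0.0630), by 9.93 points between 6 h and 1 h (adjusted p = 0.0630) and by -7.34 points between 1 h and 0 h (adjusted p = 0.0679, exact permutation tests). None of these passed the threshold in this test. The 1 h dip was thus seen in the plain shares of H3K18ac and H3K4me3, whereas for H3K27ac and RNAPII the shares were higher at 1 h than at 0 h, with a smaller difference than at the other regions.

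Depth is given beside these values, and its part in the dip was not tested. For H3K18ac the lowest background was 7.54 and 7.03 fragments at 0 h, 8.61 in replicate 2 of 1 h, and 8.33 in replicate 2 of 6 h. For H3K4me3 it was 4.70 and 6.89 at 0 h, 4.67 and 6.32 at 1 h, then 3.71 and 6.31 at 6 h. The H3K18ac library of 1 h was the deepest of those 4, and the H3K4me3 libraries of 1 h lay slightly under those of 0 h and above those of 6 h with the same replicate number. RNAPII had 9.53 and 7.98 fragments at 0 h, 7.33 and 7.05 at 1 h, then 6.94 and 5.61 at 6 h.

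Counted region by region, H3K18ac was lost between 0 h and 1 h (a peak in both libraries of 0 h and in neither of 1 h) at 310 of the 2041 regions, or 15.2%. The background over all 85420 H3K9ac regions was 2.26%. It was gained between 1 h and 6 h at 333 regions (16.3%, background 2.1%). H3K4me3 was lost at 1 h against 0 h at 209 regions (10.2%, background 1.39%) and gained at 6 h against 1 h at 274 (13.4%, background 1.5%). The opposite calls were few. H3K18ac was gained at 1 h at 17 regions (background 3.13%) and lost at 6 h against 1 h at 14 (background 6.93%). H3K4me3 was gained at 1 h at 1 region (background 0.77%) and lost at 6 h against 1 h at 2 (background 1.42%). H3K27ac was lost at 1 h at 5 regions (background 0.217%) and gained there at 48 (2.35%, background 5.95%). Between 1 h and 6 h it was gained at 24 (1.18%, background 0.718%) and lost at 8 (background 1.89%). RNAPII was lost at 1 h at 28 regions (1.37%, background 1.97%), gained at 6 h against 1 h at 50 (2.45%, background 1.32%) and lost at 6 h against 1 h at 64 (3.14%, background 9.26%).

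Nearly all regions that lost H3K18ac at 1 h had it in both libraries again at 6 h. H3K18ac was missing only at 1 h at 303 regions (14.8%), against 1.49% of the other H3K9ac regions. H3K4me3 was missing only at 1 h at 187 (9.16%), against 0.646%. Both were missing only at 1 h at 80 regions (3.92%, against 0.179%). H3K27ac was missing only at 1 h at 4 regions (0.196%, against 0.0840% of the other regions). It kept peaks in both libraries of 1 h at 283 of the 303 regions without H3K18ac (13.9% of all 2041, against 1.01% of the other regions) and at 186 of the 187 without H3K4me3 (9.11%, against 0.608%). These percentages are of all regions of a class. At the other H3K9ac regions, 1.01% stands beside the 1.49% that missed H3K18ac only at 1 h. For H3K4me3, 0.608% stands beside 0.646%. H3K27ac was thus kept at most of those regions too. These counts are a description, since regions of the same libraries are not replicates.

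**Figure D3:**
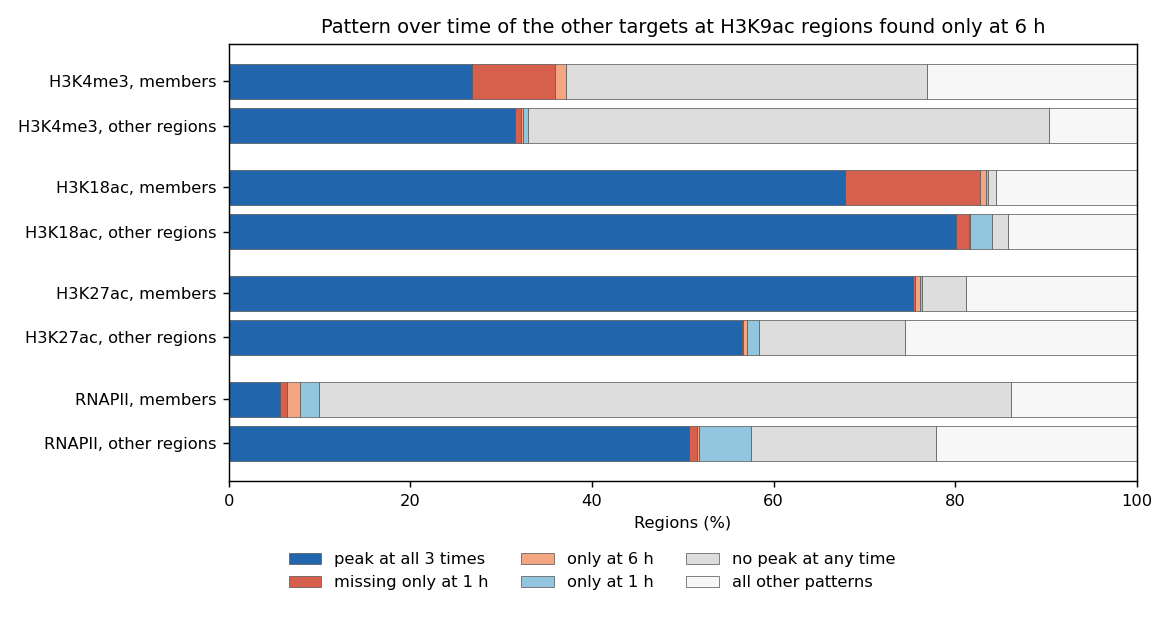
Patterns over time of the 4 other targets at the 2041 regions with H3K9ac only at 6 h (members) and at the 83379 other H3K9ac regions, in percent of regions. A time counts as having a peak when both libraries do; regions whose libraries differ and rarer patterns are in the last class. The red part, missing only at 1 h, is 14.8% for H3K18ac and 9.16% for H3K4me3 at the members.

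Peaks of H3K18ac and H3K4me3 that stayed at all times also had lower folds at 1 h. The fold was compared within replicate number at regions with a peak at all 3 times. For H3K18ac the median fold over 1528 regions in replicate 1 was 4.30 at 0 h, 2.76 at 1 h and 4.20 at 6 h, and in replicate 2, over 1491 regions, it was 4.33, 2.84 and 4.35. The fold was lower at 1 h than at 0 h in 83.0% and 81.5% of these regions, against 48.6% and 45.5% of the other H3K9ac regions. For H3K4me3 the median was 3.89 at 0 h, 2.71 at 1 h and 5.18 at 6 h over 584 regions in replicate 1. In replicate 2 it was 4.22, 2.67 and 5.64 over 727 regions. It was lower at 1 h than at 0 h in 86.8% and 91.2% of them, against 57.7% and 49.9% of the others.

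H3K4me3 folds at 6 h were mostly above those at 0 h. This held for 80.0% and 81.6% of the regions with a peak at all times. The same share was not counted at the other H3K9ac regions. Only their medians are given, which were much higher, at 16.0 and 13.9 at 0 h and 15.3 and 13.3 at 6 h. For H3K18ac the share above 0 h, at the regions found only at 6 h, was 47.4% and 53.3%. H3K27ac moved less, with medians of 3.50 and 3.73 at 0 h, 3.30 and 3.37 at 1 h, then 3.88 and 4.06 at 6 h. Its fold was lower at 1 h than at 0 h in 57.2% and 63.6% of the regions, against 18.6% and 23.2% of the others. At those other H3K9ac regions its medians were 3.73 and 4.05 at 0 h, then 4.53 and 4.74 at 1 h. RNAPII could be followed at 144 and 133 regions only, where its median fold was 3.63 and 3.82 at 0 h, 4.54 and 4.75 at 1 h, then 4.33 and 4.31 at 6 h. A fold depends on the depth and background of its library, and no test across libraries was made of it.

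**Figure D4:**
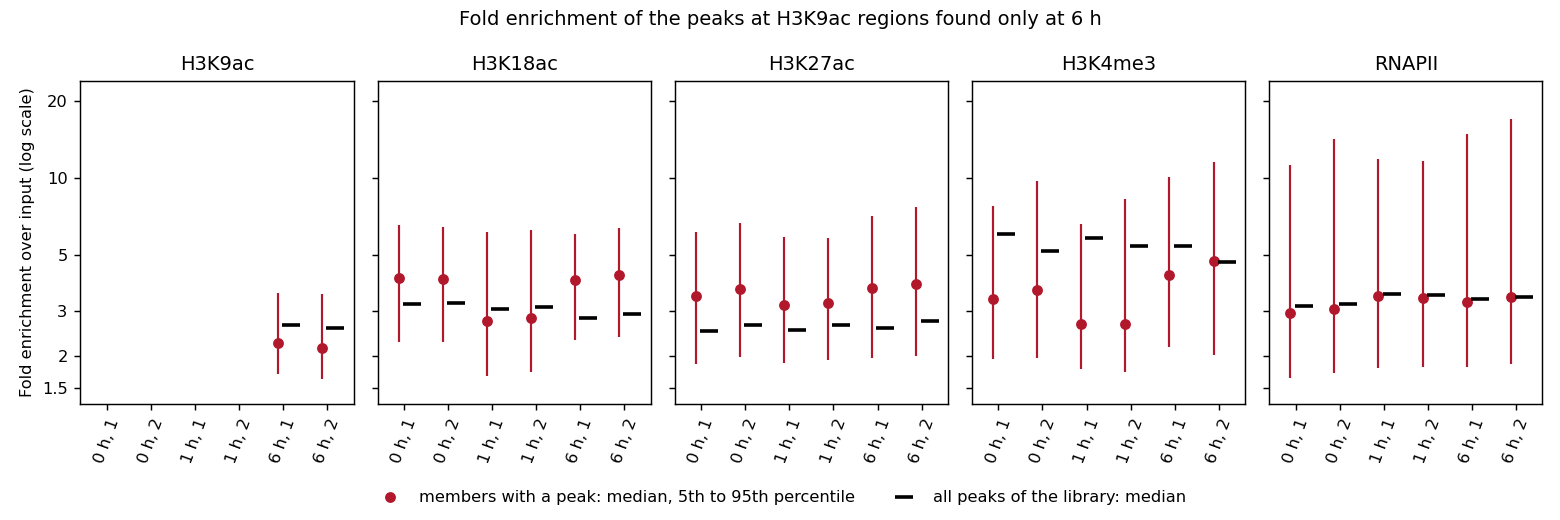
Fold enrichment over input (log scale) of the peaks at the 2041 regions with H3K9ac only at 6 h, in each library, for the regions that have a peak there. Points are medians, lines run from the 5th to the 95th percentile, and black dashes are medians of all peaks of the library. H3K18ac medians are above the dashes at 0 h and 6 h and below them at 1 h.

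The strength of the marks differed from that of the whole lists. H3K18ac peaks at these regions were above the median of their list in 74.5% and 72.7% of cases at 0 h, 41.2% and 40.9% at 1 h, then 87.4% and 85.8% at 6 h. Against peaks at the other H3K9ac regions, median H3K18ac folds were lower at 0 h, with 4.06 and 4.00 against 4.48 and 4.44. They were also lower at 1 h, with 2.75 and 2.83 against 4.51 and 4.58. At 6 h they were slightly higher, with 3.98 and 4.17 against 3.85 and 4.03. H3K27ac peaks were above their list median in 70.4% to 80.9% of cases over the 6 libraries. Their median folds were below those of the other H3K9ac regions in every library, at 3.16 to 3.82 against 3.63 to 4.27. H3K4me3 peaks were weak, with 11.0% and 21.9% above the list median at 0 h, 6.74% and 11.1% at 1 h, then 29.8% and 50.3% at 6 h. Their median folds at 0 h were 3.35 and 3.63, against 14.6 and 12.9 at the other H3K9ac regions.

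The combinations of marks were counted next. H3K4me3, H3K18ac and H3K27ac together, in both libraries and without RNAPII in either, were found at 826 regions (40.5%) at 0 h, 314 (15.4%) at 1 h and 916 (44.9%) at 6 h. The other H3K9ac regions had this combination in 5.96%, 3.29% and 6.66% of cases at 0, 1 and 6 h. H3K18ac and H3K27ac alone were found at 421 (20.6%), 557 (27.3%) and 465 (22.8%) of the 2041 regions at these times, against 7.42%, 8.48% and 11.2% of the other regions. H3K27ac as the only mark was found at 1 region at 0 h, 162 (7.94%) at 1 h and none at 6 h, and at 0.0432%, 0.688% and 0.0744% of the other regions at these times. All 4 other targets together were rare, with 27 regions (1.32%) at 0 h, 50 (2.45%) at 1 h and 53 (2.60%) at 6 h, against 25.7%, 28.5% and 25.2% of the other regions.

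The number of other targets gained together with H3K9ac was much as at the other H3K9ac regions, but single targets differed. No other target was gained at 6 h against 0 h at 1904 regions (93.3%, against 93.1% of the other regions). A single target was gained at 130 (6.37%, against 6.73%), 2 at 6 (0.294%, against 0.174%) and 3 at 1. By target, H3K27ac was gained at 56 regions (2.74%, background 4.47%), RNAPII at 39 (1.91%, background 1.57%), H3K18ac at 26 (1.27%, background 0.645%) and H3K4me3 at 24 (1.18%, background 0.421%). The share for RNAPII was near its background, that for H3K27ac was under it, and those for H3K18ac and H3K4me3 were above theirs. Losses at 6 h against 0 h came to 5 regions for H3K27ac (background 0.384%), 16 for RNAPII (background 2.79%), 12 for H3K18ac (background 3.57%) and 5 for H3K4me3 (background 0.969%). RNAPII was gained at 1 h against 0 h at 60 regions (2.94%), which was under the background of 8.21%.

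The region that gained most was chr12:67339593-67339917, 325 bp long, with H3K9ac at 3.41 and 2.67. It had neither H3K4me3, H3K18ac nor H3K27ac at 0 h, and all of them at 6 h. H3K4me3 was at 1.82 and 3.07, H3K27ac at 3.01 and 2.35, and H3K18ac at 2.37 and 2.48 at 6 h, the last with earlier peaks of 3.01 and 2.20 at 1 h. RNAPII went the other way, with 2.25 and 1.62 at 0 h, 2.71 and 2.48 at 1 h, and a peak in replicate 2 only, of 1.81, at 6 h. At chr7:13186723-13187354, which lay 219015 bp from any earlier H3K9ac peak, H3K18ac of 4.70 and 2.85 and H3K4me3 of 3.19 and 4.16 appeared at 6 h without earlier peaks. At chr4:1091149-1091568, H3K18ac and H3K27ac were absent at 0 h and present from 1 h, where H3K27ac had folds of 2.35 and 2.34 at 1 h, then 2.39 and 2.89 at 6 h.

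RNAPII appeared after 0 h at some regions, at 6 h only or from 1 h on. At chr2:33899183-33899795, RNAPII had folds of 4.94 and 5.79 at 6 h and no earlier peak, at a site where H3K4me3 was strong throughout, with 17.6 and 15.7 at 0 h, 13.2 and 12.7 at 1 h, then 19.8 and 17.3 at 6 h. The highest RNAPII folds of the named regions were at chr3:16307474-16307719, with no peak at 0 h, 8.94 and 8.91 at 1 h, then 11.3 and 12.8 at 6 h. H3K4me3 followed there at 6 h only, with 6.04 and 5.49, while H3K9ac was weak at 1.82 and 2.19. Neither H3K18ac nor H3K27ac had a peak there at any time, and an earlier H3K9ac peak lay 107 bp away. Merged RNAPII regions found only at 6 h overlapped 18 of the 2041 regions (0.882%, against 0.315% of the other regions).

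Among regions with all 4 other targets at 6 h, the strongest after chr4:3150037-3150861 was chr8:60204936-60205840, with H3K9ac folds of 3.70 and 3.93. Its H3K27ac was at 3.02 and 4.81 at 0 h, 3.40 and 3.44 at 1 h, then 6.74 and 6.62 at 6 h. The region chr1:55234422-55235420 lacked H3K18ac at 1 h only and had H3K4me3 folds of 8.04 and 10.6 at 0 h, 6.21 and 5.32 at 1 h, then 12.5 and 13.3 at 6 h. At chr5:60284355-60284892, H3K18ac was absent at 0 h, had a peak of 1.62 in a single library of 1 h, and stood at 2.20 and 1.96 at 6 h.

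The regions lay at all distances from earlier H3K9ac. The distance to the nearest H3K9ac peak of 0 h or 1 h ranged from 1 bp to over 2 Mb with a median of 2143 bp. It was at most 1 kb at 769 regions (37.7%), 1 to 5 kb at 449 (22.0%) and over 5 kb at 823 (40.3%). Those close to earlier peaks had a median length of 392 bp, and those over 5 kb away of 513 bp. Between neighbouring regions the median distance was 56748 bp, and 312 had another within 2 kb. At 0 h, 55.3% of the regions overlapped or touched an H3K4me3 peak, against 39.0% of the other H3K9ac regions, while 6.17% lay over 50 kb from the nearest, against 1.01%.

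**Figure D5:**
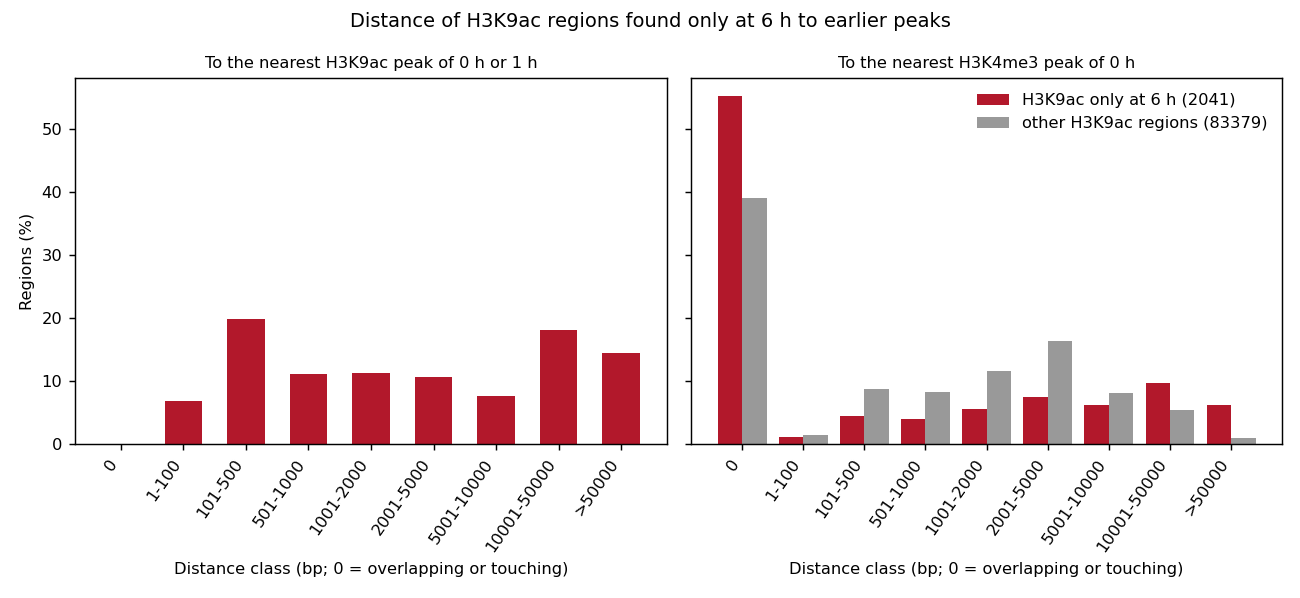
Distance classes (x axis, bp) of the regions with H3K9ac only at 6 h, in percent of regions, to the nearest H3K9ac peak of 0 h or 1 h (left, 2041 regions; the class of 0 is empty by the rule) and to the nearest H3K4me3 peak of 0 h, beside the 83379 other H3K9ac regions (right). Of the 2041 regions, 55.3% overlapped or touched H3K4me3 and 6.17% were over 50 kb away.

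The dip of H3K18ac was deepest far from earlier H3K9ac. Over 5 kb away, H3K18ac peaks were found at 97.7% and 97.4% of the regions at 0 h, 63.5% and 63.4% at 1 h, then 99.1% and 98.8% at 6 h. Within 1 kb the shares were 95.4% and 94.7% at 0 h, 88.7% and 85.6% at 1 h, then 95.1% and 94.5% at 6 h. RNAPII was at 2.19% to 4.37% in the far regions over all libraries and at 19.9% to 26.1% in the near ones. H3K27ac was found at 89.4% to 95.9% of the far regions in every library. Of the far regions 55.3% lay in 1 Mb bins poor in H3K4me3 (defined below), against 19.8% of the near ones. The difference between near and far regions was not tested, and it was not separated from that between bins.

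The regions were spread over all chromosomes but were a larger share of H3K9ac regions where H3K4me3 was sparse. Chromosomes were divided into 1 Mb bins, and 403 bins out of 807, those least covered by H3K4me3 peaks of 0 h (at most 1.83% of their length), are called H3K4me3-poor. These held 724 of the 2041 regions (35.5%), against 7.41% of the other H3K9ac regions, 4.73% of those only at 0 h and 8.38% of those only at 1 h. Regions found only at 6 h were 10.5% of the H3K9ac regions in H3K4me3-poor bins and 1.68% in the remaining bins. They were found in 637 bins, with at most 11 in a bin. By chromosome they made up 1.72% (chromosome 2) to 3.66% (chromosome 10) of the H3K9ac regions, and on each of the 12 chromosomes their share in H3K4me3-poor bins was above that of the other regions, from 20.1% against 5.46% on chromosome 3 to 48.3% against 11.9% on chromosome 12. No test was made of this, since the regions of a bin are not independent.

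In H3K4me3-poor bins the dip at 1 h was larger, and the other H3K9ac regions showed it too. H3K18ac peaks overlapped 98.1% and 97.5% of the 724 regions at 0 h, 62.6% and 61.7% at 1 h, then 98.6% and 98.2% at 6 h. The other H3K9ac regions of the same bins had 92.7% and 92.6% at 0 h, 79.2% and 78.2% at 1 h, then 91.0% and 90.1% at 6 h. H3K4me3 was at 50.1% and 56.9% of the 724 at 0 h, 22.1% and 28.0% at 1 h, then 55.5% and 60.6% at 6 h, against 37.8% and 40.6%, 32.3% and 33.9%, and 38.0% and 40.6% of the other regions of those bins. Within these bins alone, a comparison added after seeing the data, the excess differed by -12.2 points between 1 h and 0 h and by 13.7 points between 6 h and 1 h (exact permutation test, adjusted p = 0.00926 each). In the remaining bins it was -9.01 and 11.8 points (exact permutation test, adjusted p = 0.00463 each). With each pair counted once no p under 0.125 is possible in such a test. RNAPII was found at 3.87% to 6.22% of the 724 regions over the 6 libraries. The other H3K9ac regions of the H3K4me3-poor bins had 42.0% to 45.1%. The mean RNAPII difference was -38.7 points in these bins and -49.3 points in the remaining bins, against -51.9 points over all bins.

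H3K4me3 at 0 h also divided the regions. It was in both libraries of 0 h at 951 regions (46.6%, against 35.4% of the other H3K9ac regions) and in neither at 912 (44.7%). The other H3K9ac regions were not divided in this way, so whether the differences below are particular to these regions was not tested. H3K18ac at 1 h was found at 68.6% and 65.3% of those with H3K4me3 and at 87.0% and 87.4% of those without it. At 6 h the shares were 99.1% and 99.2% with H3K4me3 and 95.5% and 94.5% without. H3K27ac was found at 98.0% to 99.9% of the regions with H3K4me3 in every library, and at 61.7% to 79.4% of those without. RNAPII was the rarer with H3K4me3, at 6.10% in both libraries of 0 h, against 18.3% and 17.2% without. The highest points of the H3K9ac and H3K27ac peaks lay a median of 133 bp apart in replicate 2 of 6 h, those of H3K9ac and H3K4me3 169 bp and those of H3K9ac and H3K18ac 308 bp. At the other H3K9ac regions these distances were shorter, with medians of 105, 89 and 211 bp.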

How the data were processed

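Peak lists of 30 libraries (5 targets, 3 times, 2 libraries each) were analysed, from 32 samples in all. Neither H3K27me1 nor the input was analysed here. According to the methods and the processing notes, the authors trimmed reads with Trimmomatic 0.38, mapped them to the M82 assembly with Bowtie2 2.3.5, used SAMtools 1.9, and called peaks per library against the input with MACS2 2.2.7.1. The methods name broad peaks by q-value and the reporting summary narrow peaks at a p-value of 0.05; the deposited lists hold narrow peaks. In these lists the authors deposited a fold enrichment, which is a ratio, and the p-value and q-value as −log10; the authors' score column, a multiple of the −log10 p-value, was not used. No read totals were used, so depth is the lowest background recovered.

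All peaks as deposited on the 12 chromosomes were used, with an overlap of 1 bp. Fragments per peak were solved from fold and p-value (within 0.001 of −log10 p), and at least 99.98% of peaks gave whole numbers in 26 libraries; in the other 4 at most 1.72% did, and none was used. Replicates were matched by highest points within 30 bp with at least 60 fragments together. The times were compared by an exact permutation test of time labels within each target (1296 arrangements) and region classes by an exact sign-flip test over 6 libraries, chosen after seeing the data, both two-sided with Benjamini-Hochberg adjustment. H3K9ac itself was not tested. Named regions were the 8 with the highest lower fold, the 5 longest, the 5 strongest with all 4 other targets at 6 h, the 5 with most other targets gained, and the 3 strongest with none. Gene models of this assembly were not used here, so no gene is assigned. The regions, the classes and H3K4me3-poor bins were chosen with earlier results of these data known. Scripts were tested on simulated data. Software was scipy 1.17.1, pandas 2.3.3, numpy 2.4.6 and matplotlib 3.10.9 under Python 3.11.15. The alternatives were q cutoffs of 0.05 and 0.01, equal numbers of peaks per list, other length limits, 50% cover, a replicate block, each pair counted once, and each replicate left out.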

Additional observations from a re-analysis of the deposited data

Results flagged for a closer look

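The changes given here went one way at 1 h and the other way at 6 h against the same libraries of 0 h, in every library. The difference between the times was not tested per target, and both times share the 0 h libraries. The share of regions with an H3K18ac peak differed by -20.0 points at 1 h and by 0.906 points at 6 h. The excess over the other H3K9ac regions differed by -21.8 points at 1 h and 5.92 points at 6 h for H3K18ac, by -16.8 and 3.97 points for H3K4me3, and by -6.64 and 3.64 points for RNAPII. The plain RNAPII share at these regions was higher than at 0 h at both times, by 3.01 points at 1 h and 0.882 points at 6 h, while the other H3K9ac regions differed by 9.65 and -2.75 points, so the opposite signs of the excess come from the subtraction.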

How the results depend on the processing

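The signs of the 6 joint comparisons were the same under every alternative run. The number of regions was 1503 for peaks with q up to 0.05, 1431 when lists were trimmed to equal size, 1651 at 300 bp or more, and 1124 for q up to 0.01; it was 9143 to 10203 with H3K9ac and the other targets each reduced to a single replicate, which drops the rule that both libraries of 6 h agree. The excess between 1 h and 0 h was then -8.33 to -6.96 points and that between 6 h and 1 h 9.01 to 10.5 points (adjusted p of 0.25 to 0.375). With the 2041 regions kept and a replicate of the other targets left out, it was -13.0 to -12.8 and 15.4 to 15.7 points (exact permutation test, adjusted p = 0.25), and with each pair counted once -12.9 and 15.5 points (adjusted p = 0.25); these designs cannot reach the threshold. Between 6 h and 0 h the excess passed the exact permutation test at q of 0.05 (3.28 points), q of 0.01 (3.59) and equal peaks (3.44). The plain share between 6 h and 0 h passed at q of 0.05 (3.27 points), q of 0.01 (3.61), 300 bp (2.73) and in H3K4me3-poor bins (2.50). That between 6 h and 1 h passed at q of 0.05 (11.0 points), q of 0.01 (12.6), equal peaks (9.08), 50% cover (13.4) and in H3K4me3-poor bins (18.3), and that between 1 h and 0 h in those bins only (-15.8). Over the alternatives with both replicates, adjusted p values of the plain shares ranged from 0.00926 to 0.5.

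Replicate numbers are not stated to pair samples. Replicate 2 was above replicate 1 at 3 of 3 times for H3K4me3 and below it at 3 of 3 for H3K18ac, H3K27ac and RNAPII. With a replicate block the plain share between 6 h and 0 h stayed at 2.60 points and passed (exact permutation test, adjusted p = 0.0156), and no other joint call changed.

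Signs turned for single targets in these cases, and the cause was not tested. With single replicates the H3K18ac share between 6 h and 0 h was -2.97 to -0.798 points, the RNAPII share -1.23 to -0.230 points, and the H3K27ac share between 6 h and 1 h -1.23 to 0.503 points. The contrast with the other H3K9ac regions was then -15.8 to -11.1 points for H3K4me3 and -9.53 to -1.20 points for H3K27ac. With the 2041 regions kept these were 0.833 to 0.980 (H3K18ac), 0.735 to 1.03 (RNAPII), 0.294 to 0.980 (H3K27ac), 7.73 to 11.2 (H3K4me3) and 15.6 to 16.4 points (H3K27ac). In the remaining bins the H3K18ac contrast was 0.520 points. Counting error, shallow libraries at 1 h for H3K9ac and the single input limit what a missing peak can show.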
